A study of Mus musculus with 6 samples.

Results

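The stefin A cluster is a row of closely related genes on mouse chromosome 16, and 6 of them, Stfa1, Stfa2, Stfa2l1, Stfa3, Cstdc4 and Cstdc5, were followed here in blood stem cells that lacked the cell cycle kinase CDK6. They were 6 of the 36799 genes on the array, found as all probes that carry a RefSeq accession of a member. The genes were chosen because their genotype ratios stood out on these same arrays, so their ratios and levels are described without a test. Haematopoietic stem cells (HSCs), the rare bone marrow cells that renew all blood lineages, were sorted from Cdk6-/- and from wild-type mice, which were either untreated or had received polyI:C. PolyI:C is a synthetic double-stranded RNA that the body reads as a viral infection; it sets off type I interferon and drives resting HSCs into activity. Each of 6 two-colour Agilent arrays set 1 Cdk6-/- sample, labelled with Cy5, against a wild-type pool given the same treatment, labelled with Cy3. There were 3 untreated and 3 polyI:C-treated Cdk6-/- samples, which the submitters call biological replicates. The pool of untreated wild-type HSCs was on the 3 untreated arrays and the pool of treated ones on the 3 polyI:C arrays, so each pool counts as 1 sample read 3 times. Dyes were never swapped, so a constant dye bias adds to every ratio and cancels in the difference between treatments. Every sample was amplified before labelling. Strain, age, sex, polyI:C dose and interval, and the number of mice behind a sample or pool were not given in the sources used here.

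Stefin A proteins are small inhibitors that sit in the cytosol and block cysteine proteases of the papain family, the cathepsins, when these leave the lysosome. Humans have a single stefin A gene, whereas the mouse locus has been duplicated many times. In mouse bone marrow these genes are known for their expression in neutrophils and their precursors, and in skin for their expression in keratinocytes.

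The 110 bases before each annotated start are printed because the 6 genes are copies of one another, and the shared stretches show how alike their control regions are. The sequences are RefSeq's on GRCm38.p6, which names all 6 starts and is a later build than the mm9 named in 5 of the 6 array headers; they were not placed on mm9. Stfa2l1 lies at chr16:36156701-36156810 on the plus strand, Cstdc4 lies at chr16:36184102-36184211 on the plus strand and Stfa1 lies at chr16:36277038-36277147 on the plus strand. Cstdc5 lies at chr16:36367571-36367680 on the minus strand, Stfa2 lies at chr16:36408364-36408473 on the minus strand and Stfa3 lies at chr16:36455393-36455502 on the minus strand. Capitals mark the 3 strings of at least 10 bases that a search found in the 250 bases before the start of every member.
Stfa2l1: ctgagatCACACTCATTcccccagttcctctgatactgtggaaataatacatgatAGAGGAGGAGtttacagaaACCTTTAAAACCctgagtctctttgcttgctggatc
Cstdc4: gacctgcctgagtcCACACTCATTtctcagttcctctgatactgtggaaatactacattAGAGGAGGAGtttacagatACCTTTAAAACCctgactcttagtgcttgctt
Stfa1: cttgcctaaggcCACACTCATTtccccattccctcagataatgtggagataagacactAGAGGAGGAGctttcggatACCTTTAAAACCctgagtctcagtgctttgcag
Cstdc5: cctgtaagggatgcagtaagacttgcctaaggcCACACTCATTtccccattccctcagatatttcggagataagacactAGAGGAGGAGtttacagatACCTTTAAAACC
Stfa2: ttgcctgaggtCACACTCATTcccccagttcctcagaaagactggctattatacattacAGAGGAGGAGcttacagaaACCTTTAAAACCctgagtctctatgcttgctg
Stfa3: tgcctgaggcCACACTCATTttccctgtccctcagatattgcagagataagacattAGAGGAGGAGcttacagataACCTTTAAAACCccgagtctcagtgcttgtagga

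Across the 250 bases, identity between 2 members other than Cstdc5 ran from 68.7% for Stfa3 and Cstdc4 to 89.4% for Stfa2 and Stfa2l1. In pairs with Cstdc5 it ran from 65.1% with Cstdc4 to 81.2% with Stfa1. It was counted over all columns of an end-to-end alignment, so that gaps lower it. Pairs with Cstdc5 had the most columns, so their percentages are not ranked against the others. Stfa1 and Cstdc5 had 220 identical bases in 271 columns, and Stfa2 and Stfa2l1 had 227 in 254. The string ACCTTTAAAACC began 32 to 36 bases before the annotated start in 5 members and 12 bases before it in Cstdc5. It was present, on either strand, in 0.0335% of 32851 mouse windows of the same length, or 11 windows. Among the 11 were the 6 members and 2 other genes of the family, Csta3 and Cstdc3. The string CACACTCATT was in 0.0822% of the 32851 windows and AGAGGAGGAG in 0.816%, with the members counted in both shares. All 3 strings were picked because the members share them, so nothing is read from their rarity. Short motifs were then counted on both strands. The AT-rich letters TTTAAA, searched after the shared string was seen and lying inside it, were in 6 of 6 members and in 12.1% of all windows. The letters GAAANNGAA, a core of interferon response elements, were in 0 of 6 members and in 7.13% of all windows. The C/EBP letters TTGCNNAA were in Stfa1 and Cstdc5 and in 9.56% of all windows, and the STAT letters TTCNNNGAA were in Cstdc4 and in 7.02%. The PU.1 letters GAGGAAGT were in 0 of 6 members and in 2.44% of all windows. These matches describe letters and not bound sites.

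Each member had 1 probe, printed as 1 spot. All 6 probes were well above background in both channels on all 6 arrays, no member spot was marked as an outlier, and no spot on the arrays was saturated. Because the transcripts are near-identical, a probe for 1 member may also capture RNA of another. Probe sequences were not analysed here, so cross-hybridisation was not tested, and each value below is that of a probe named for its gene. Across the 6 arrays the ratios of Stfa1, Stfa2 and Cstdc5 correlated with one another at Pearson r of 0.990 to 0.993, while the ratio of Stfa3 correlated with the other 5 at 0.70 to 0.80. These correlations share arrays, and the treatment separates the arrays into 2 groups.

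On the arrays as a whole, all 18 genes of a list of HSC markers were measured. So were all 16 neutrophil granule and S100, 17 erythroid and 14 B cell genes of other lists that had a probe. Being measured therefore does not tell cell types apart here. Of 30 measured interferon response genes, 30 were higher on average after polyI:C in Cdk6-/- samples, with a median log2 change of 1.29, and 30 were higher in the treated pool, with a median of 1.96. The difference of their ratios between treatments was below 0 for 30 of 30, with a median of -0.51. Cdk6 itself had 1 probe, which was not well above background on the untreated arrays. Its log2 ratios on the polyI:C arrays were -0.26, -0.44 and -1.28, and whether this probe covers a deleted exon was not analysed here. Untreated array 3 and polyI:C array 3 held Cdk6-/- samples with little Xist RNA relative to the pool, at log2 ratios of -3.98 and -3.42, against 0.42 to 1.87 on the other 4 arrays. PolyI:C array 3, the sole array of its slide, had more spots well above background in Cy5, at 76.5%, than the 47.0 to 55.7% of the other arrays. The same held in Cy3, the treated pool, at 75.6% against 54.4 to 58.7%. Over all genes the ratios of this array correlated with the rest of its group at a mean r of 0.175. That mean was 0.35 for polyI:C array 1 and 0.39 for polyI:C array 2. The cause was not tested.

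In untreated mice most stefin A genes were lower in Cdk6-/- HSCs than in the wild-type pool, and after polyI:C all 6 were higher in Cdk6-/- HSCs. The median log2 ratio of the 6 members was -1.16 without treatment and 1.97 with polyI:C, and the median difference between treatments was 3.13. The same medians over the 22617 genes tested were -0.05, -0.02 and 0.04. By array, the median over members read -0.79, -0.57 and -1.97 for untreated samples 1, 2 and 3, then 2.38, 1.64 and 2.13 for treated samples 1, 2 and 3.

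Among all genes tested, limma called 3.05% higher and 9.94% lower in untreated Cdk6-/- samples at an adjusted p under 0.05, and 0.327% higher and 0.65% lower after polyI:C. The difference between the 2 ratios was called upward for 1.6% of genes and downward for 0.199%. Each pool is 1 sample, so the spread behind these and all later calls of a ratio or a difference is technical on the wild-type side. The members were picked on these ratios, so nothing is read from their standing against these shares.

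Stfa2 had the widest swing between treatments. Its log2 ratio, Cdk6-/- over wild type, read -1.47, -1.0 and -2.30 without treatment, then 2.53, 1.90 and 2.53 after polyI:C. The Cdk6-/- level was thus below the pool on every untreated array and above it on every polyI:C array. The means were -1.59 ± 0.66 (SD, n = 3) and 2.32 ± 0.36 (SD, n = 3), or 3.00-fold lower and 4.99-fold higher than the pool, and they differed by 3.91 (SE 0.35).

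Cstdc4, which encodes a cystatin domain protein of the same family, was the lowest in untreated Cdk6-/- samples. Its log2 ratio read -1.57, -1.29 and -2.21 without treatment, then 2.22, 1.12 and 1.19 after polyI:C. All untreated arrays were negative and all polyI:C arrays positive, with polyI:C array 1 about 1 log2 unit above the other 2. The means of -1.69 ± 0.47 and 1.51 ± 0.62 (SD, n = 3 each) differed by 3.20 (SE 0.36).

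Stfa2l1, whose upstream window was the closest to that of Stfa2, had log2 ratios of -0.22, -1.89 and -2.13 without treatment and 2.29, 1.48 and 1.52 with polyI:C. Untreated array 1 stood near 0 and the other untreated arrays well below it, but no untreated array reached a polyI:C array. The means were -1.41 ± 1.04 and 1.76 ± 0.46 (SD, n = 3 each), with a difference of 3.18 (SE 0.47).

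Cstdc5 and Stfa1 had smaller deficits without treatment and large excesses after it. The log2 ratio of Cstdc5 read -0.74, -0.14 and -1.81 without treatment, then 2.48, 1.81 and 2.23 after polyI:C. That of Stfa1 read -0.85, 0.22 and -1.42, then 2.63, 1.93 and 2.65. In both genes untreated array 2 was close to the pool, and for Stfa1 it was slightly above it. The polyI:C means corresponded to levels 4.51-fold above the treated pool for Cstdc5 and 5.29-fold for Stfa1. The differences between treatments were 3.07 (SE 0.40) and 3.08 (SE 0.40).

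Stfa3 had another pattern. Its log2 ratio read 1.37, 1.49 and -0.09 without treatment, then 1.90, 1.27 and 2.02 after polyI:C. Cdk6-/- samples were therefore already above the pool on 2 of 3 untreated arrays, and the groups overlapped because polyI:C array 2 lay below both of these. The means of 0.92 ± 0.88 and 1.73 ± 0.41 (SD, n = 3 each) differed by 0.81 (SE 0.42), and without untreated array 3 the difference was 0.30.

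**Figure D1:**
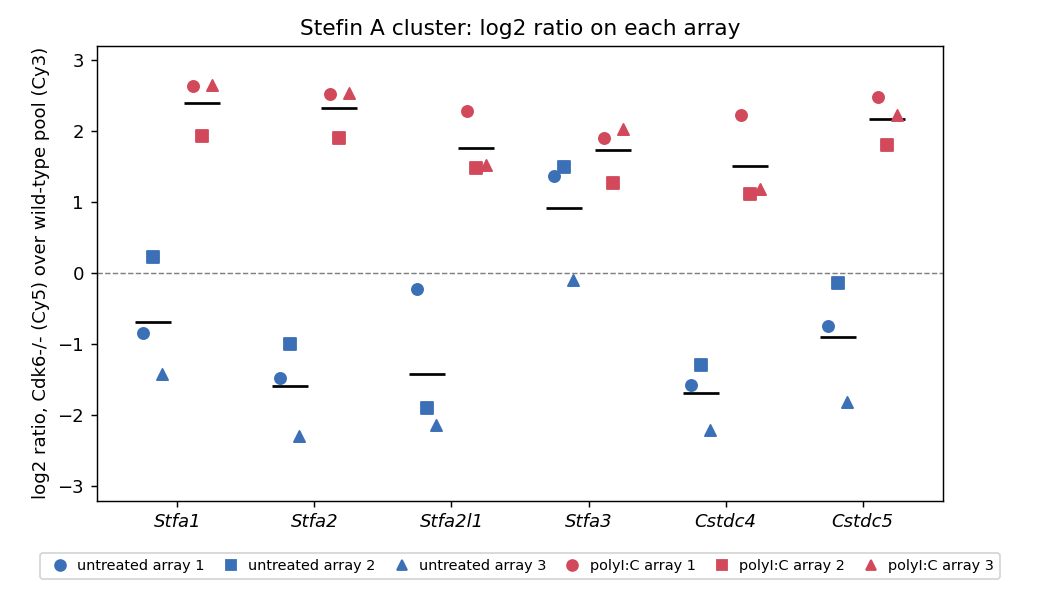
Log2 ratio of Cdk6-/- (Cy5) over the wild-type pool of the same treatment (Cy3) for the 6 stefin A genes, 1 point per array, with blue for untreated, red for polyI:C, symbols for the array number and a bar for the mean of 3 arrays. In 5 genes every polyI:C array lies above every untreated array; in Stfa3 the groups overlap, since 2 untreated arrays lie at 1.37 and 1.49.

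In 5 of 6 members the polyI:C arrays lay entirely above the untreated arrays, which was true of 14.3% of the 22506 genes measured on every array. Untreated array 3 had the lowest ratio of its group for 6 of 6 members, and polyI:C array 2 the lowest of its group for 6 of 6. Slides gave the same direction with 1 exception. On slide 1, which held untreated arrays 1 and 3 and polyI:C array 1, the differences ran from 1.26 for Stfa3 to 4.41 for Stfa2. On slide 2, with untreated array 2 and polyI:C array 2, they ran from 1.70 for Stfa1 to 3.37 for Stfa2l1 in 5 members, and Stfa3 had a difference of -0.23. Without both arrays low in Xist, the differences were 2.59 for Stfa1, 3.45 for Stfa2 and 0.15 for Stfa3, and the median over members was 2.77.

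A ratio can turn because the Cdk6-/- level rises or because the pool falls, and the 2 channels were therefore read separately. They were normalised between arrays, and every level below is a log2 intensity of 1 probe, to be compared only with the same probe. The RNA came from sorted populations, in which fewer cells that express a gene and less RNA per cell cannot be told apart.

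In the wild-type pools 5 members were lower after polyI:C, and Stfa2, Stfa2l1 and Cstdc4 fell furthest. Cstdc4 read 11.51, 11.60 and 11.39 in the untreated pool and 9.15, 8.63 and 8.11 in the treated pool, a change of -2.87 or 7.32-fold. Stfa2 read 11.70, 11.74 and 11.76, then 9.49, 9.33 and 8.94, a change of -2.48 or 5.58-fold. Stfa2l1 read 10.35, 10.27 and 10.22, then 8.04, 8.29 and 7.35, a change of -2.39 or 5.23-fold. The 3 readings of the untreated pool lay close together, with an SD of 0.031 to 0.10 across these genes, and those of the treated pool spread more, with an SD of 0.28 to 0.52.

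Stfa1 and Cstdc5 had smaller pool changes, of -1.16 and -0.93. The untreated pool read 10.65, 10.87 and 10.59 for Stfa1 and the treated pool 10.03, 9.78 and 8.82. For Cstdc5 the readings were 10.79, 10.71 and 10.63, then 10.04, 9.54 and 9.77. Stfa3 was the exception, at 8.56, 8.56 and 8.29 in the untreated pool and 8.65, 8.94 and 8.63 in the treated one, a change of 0.27, with each treated reading above each untreated one. The treated readings lay entirely below the untreated ones for 5 of 6 members, as for 23.2% of all genes. With 1 pool per treatment these changes have no biological replicate, and their spread is technical.

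In Cdk6-/- samples all 6 mean levels were higher after polyI:C, by 0.33 to 2.14 log2 units. Cstdc5 had the largest change: the Cdk6-/- samples read 10.05, 10.58 and 8.82 without treatment and 12.52, 11.35 and 12.001 with it, a change of 2.14 (SE 0.50) or 4.42-fold. Stfa1 read 9.80, 11.10 and 9.17, then 12.66, 11.71 and 11.47, a change of 1.92 (SE 0.53) or 3.79-fold. In the means over arrays both genes thus combined a gain in Cdk6-/- samples with a smaller drop in the pool. The same held on slide 1, at 3.18 against -0.59 for Stfa1 and 3.09 against -0.67 for Cstdc5. On slide 2 the drop in the pool was the larger, at 0.61 against -1.09 for Stfa1 and 0.78 against -1.17 for Cstdc5.

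Stfa2 read 10.23, 10.74 and 9.46 in untreated Cdk6-/- samples and 12.01, 11.23 and 11.47 in treated ones, a change of 1.43 (SE 0.41). Stfa3 read 9.92, 10.05 and 8.20, then 10.55, 10.21 and 10.65, a change of 1.08 (SE 0.50). In these genes and in Cstdc5 and Stfa1 every treated sample exceeded every untreated one, though for Stfa3 the lowest treated sample was only 0.15 above the highest untreated one.

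Stfa2l1 and Cstdc4 overlapped between treatments in Cdk6-/- samples. Stfa2l1 read 10.13, 8.38 and 8.09, then 10.33, 9.77 and 8.87, a change of 0.79 (SE 0.58). Cstdc4 read 9.94, 10.30 and 9.18, then 11.37, 9.75 and 9.30, a change of 0.33 (SE 0.55), which became -0.27 without polyI:C array 1. In the means over arrays the turn of the Cstdc4 ratio therefore lay mostly in the pool. On slide 1 its Cdk6-/- level rose by 1.80, against a pool change of -2.31. On slide 2 the Cdk6-/- level of Cstdc4 changed by -0.56, and those of the other 5 members by 0.15 to 1.39.

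**Figure D2:**
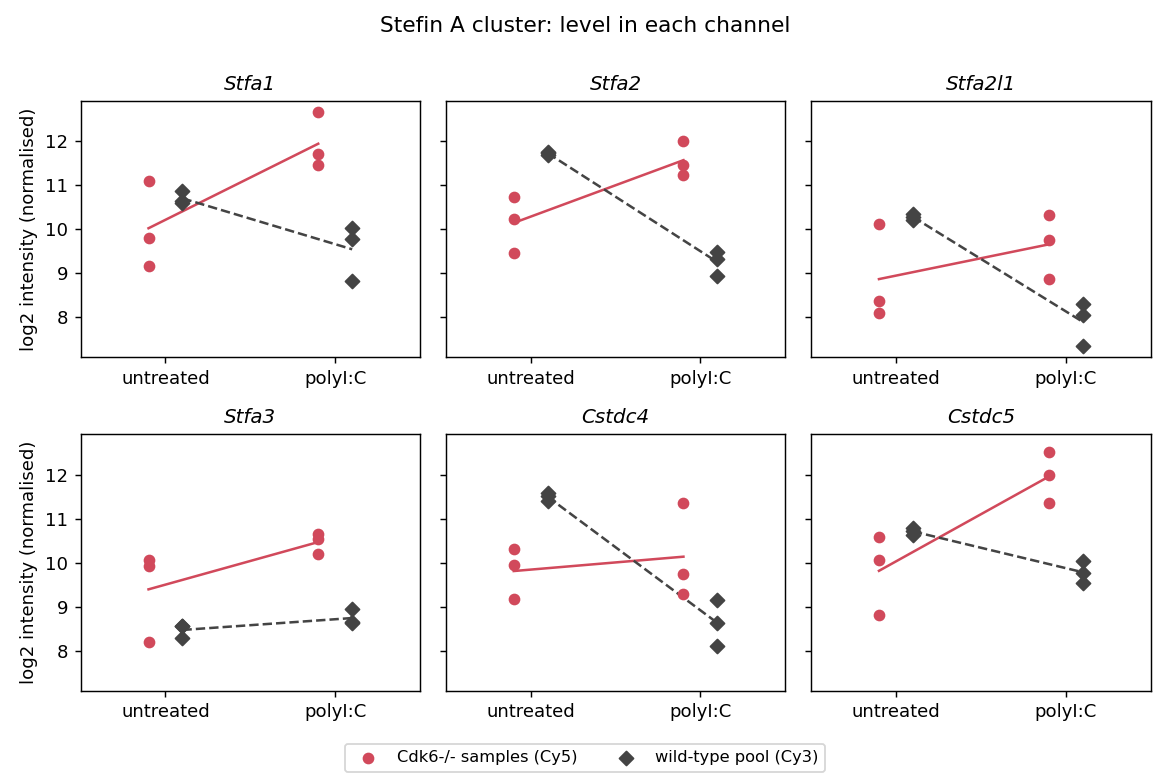
Normalised log2 intensity of each stefin A probe in Cdk6-/- samples (red circles, Cy5, 3 samples per treatment) and in the wild-type pool (grey diamonds, Cy3, 1 pool per treatment read on 3 arrays), with lines joining the means. The pool falls in 5 genes, most in Cstdc4 by 2.87, and is 0.27 higher in Stfa3, while the Cdk6-/- mean rises most in Cstdc5, by 2.14.

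Among all genes tested, limma called the Cdk6-/- level higher after polyI:C for 0.106% and lower for 0.0575% at an adjusted p under 0.05. All treated samples exceeded all untreated ones for 4 of 6 members and for 9.2% of all genes. The median change over members was 1.25 in Cdk6-/- samples and -1.77 in the pools, against 0.033 and -0.0024 over all genes.

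The targets of stefins, the cysteine cathepsins, were measured for 10 of 11 genes on the list used. In untreated samples 3 were lower in Cdk6-/- HSCs by limma: Ctsk, the collagen-degrading cathepsin of osteoclasts, at -2.03 (adjusted p = 0.00114), Ctss, which trims the invariant chain in antigen-presenting cells, at -0.94 (adjusted p = 0.0190), and the aminopeptidase Ctsh at -0.87 (adjusted p = 0.0333). After polyI:C limma called 0 of 10, with 4 higher at an unadjusted p under 0.05. The difference between treatments was called for Ctsh, at 1.79 (limma adjusted p = 0.0265), and for Ctsk. The Ctsk probe was well above background on 3 of 3 arrays in the untreated pool but on 0 of 3 in the treated pool, and in Cdk6-/- samples on 2 of 3 and 1 of 3, so the size of its difference is not read. Neither passed without untreated array 3 or without polyI:C array 3, and Ctsh also did not without untreated array 1, polyI:C array 1 or polyI:C array 2. The 3 lower calls without treatment became 1 without untreated array 1 or with slide as a block, and 1 lower and 1 higher without untreated array 3 or under median centring of the ratios in place of loess. Under median centring 6 of 10 were called higher after polyI:C. The median cathepsin change was -0.16 in Cdk6-/- samples and -0.92 in the pools. Ctsb and Ctsl, lysosomal cathepsins found in most cells, had differences of 0.91 (SE 0.34) and -0.04 (SE 0.31).

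Other inhibitors of the cystatin family were measured for 6 genes. Cstb, the single-copy stefin B gene, had log2 ratios of 0.68, -0.27 and -0.93 without treatment and 0.49, 0.22 and 0.77 with polyI:C, which overlapped, and a difference of 0.67 (SE 0.38, limma adjusted p = 0.425). Of the 6, limma called 1 lower without treatment and 1 upward in the difference, in both cases Kng2, a kininogen gene that encodes secreted cystatin domains. Its probe was well above background in Cdk6-/- samples on 0 of 3 untreated and 1 of 3 polyI:C arrays, and in the pools on 3 of 3 and 1 of 3, so the size of its ratios is not read. Its difference did not pass when any 1 of the 6 arrays was left out or under median centring, and median centring gave 1 higher call among the 6 after polyI:C. The median difference of the 6 was 0.52, with Kng1 and Kng2 tested only because the untreated pool was well above background on 3 of 3 arrays.

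Protease inhibitors of other families that leukocytes make were measured for 14 genes. Limma called 4 of them lower without treatment, 1 higher after polyI:C and 3 upward in the difference. These 3 were Wfdc21 at 2.11 (limma adjusted p = 0.0168), Wfdc17 at 1.84 (limma adjusted p = 0.0223) and Slpi, the secretory leukocyte protease inhibitor, at 1.82 (limma adjusted p = 0.0408). In the Cdk6-/- channel Slpi changed by -1.51 and in the pools by -3.33. Without untreated array 3, polyI:C array 1 or polyI:C array 3, limma called 0 of the 14 differences, and without untreated array 1 or polyI:C array 2 it called 1. The 4 calls without treatment became 0 without untreated array 1 or 3, and the call after polyI:C, of the arrays left out in turn, held only without untreated array 2. Median centring gave 2 higher and 1 lower without treatment and 7 higher after polyI:C.

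Genes of the neutrophil secondary granules and the S100 proteins, which neutrophils store for release at infection, were measured for 16 genes. Of these, limma called 9 lower in untreated Cdk6-/- samples, with a median ratio of -0.99. After polyI:C limma called 0 of 16, with 14 higher at an unadjusted p under 0.05 and a median ratio of 0.90. The difference was called upward for 9 of 16, with a median of 1.82. Among them were Chil3, a chitinase-like secreted protein, at 2.39 (limma adjusted p = 0.0120), the resistin-like gene Retnlg at 2.27 (limma adjusted p = 0.0289), S100a8, a subunit of calprotectin, at 2.21 (limma adjusted p = 0.0178), and the neutrophil collagenase Mmp8 at 2.16 (limma adjusted p = 0.0190). The 9 calls of the difference became 2 without untreated array 1, 1 without untreated array 3, 3 without polyI:C array 1, 2 without polyI:C array 2 and 0 without polyI:C array 3. The 9 calls without treatment became 3 without untreated array 1 and 1 without untreated array 3; with slide as a block they were 1 lower and 1 higher, and under median centring 0 lower and 1 higher. With slide as a block, or without both arrays low in Xist, limma called 0 differences in this list and in every other list counted here. The scanner's processed signals gave 1 of 16 in this list and 2 of 11 among the neutrophil receptors below. They gave 0 differences among the cathepsins, the other cystatins and the protease inhibitors of other families. They also gave 0 among the granulocyte transcription factors and the primary granule genes below. Median centring called 15 of 16 higher after polyI:C. Itgam, the CD11b integrin chain, was the 1 gene of the list with a difference below 0, at -0.25 (limma adjusted p = 0.820), and was named after its values were seen.

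The channels of the granule genes and of the stefin A genes are set side by side here without a test of their difference. The median granule gene changed by -2.26 in the pools and by -0.40 in Cdk6-/- samples, and limma called 0 of 16 Cdk6-/- changes, with 3 lower at an unadjusted p under 0.05. The median stefin A gene changed by -1.77 in the pools and by 1.25 in Cdk6-/- samples. The log2 of the summed granule gene intensity was 18.28 to 18.74 in untreated and 18.06 to 18.58 in treated Cdk6-/- samples, and 19.05 to 19.39 in the untreated and 17.05 to 17.73 in the treated pool. By array the median granule ratio was lowest on untreated array 3, at -1.52, as for the stefin A genes, and highest on polyI:C array 3, at 1.43. The part of these cells' RNA in the stefin A values was not tested.

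**Figure D3:**
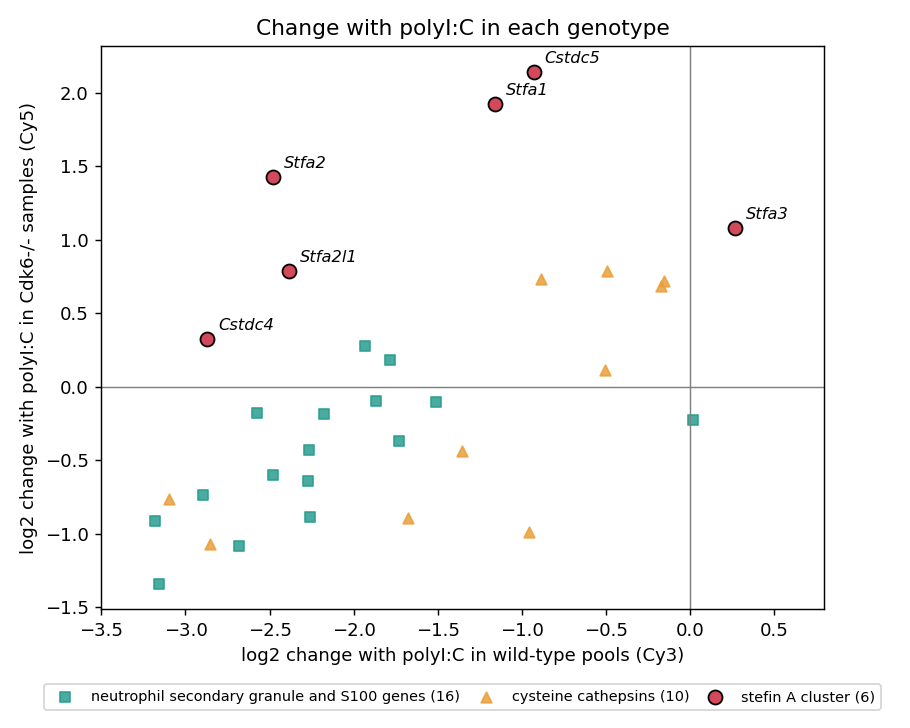
Log2 change with polyI:C in the wild-type pools (horizontal axis, Cy3) against the log2 change in Cdk6-/- samples (vertical axis, Cy5), 1 point per gene, for the 6 stefin A genes, 16 neutrophil granule and S100 genes and 10 cysteine cathepsins. All 6 stefin A genes lie above 0 on the vertical axis and 5 lie left of 0 on the horizontal one, while 14 of 16 granule genes lie below 0 on the vertical axis.

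Other lists of blood cell genes gave the following values. Of 11 neutrophil receptor genes, limma called 5 lower without treatment, 2 higher after polyI:C and 2 upward in the difference, namely the chemokine receptor Cxcr2 at 2.31 (limma adjusted p = 0.0120) and the complement receptor C5ar1 at 1.94 (limma adjusted p = 0.0109); neither passed without polyI:C array 3. Their 5 calls without treatment became 1 without untreated array 1, 2 without untreated array 2 or 3 and 3 without polyI:C array 1, and the 2 after polyI:C became 1 or 0 without any 1 array. Median centring gave 2 higher and 1 lower without treatment and 8 higher after polyI:C. Of 12 granulocyte transcription factors, 3 were called upward in the difference: Cebpe, which drives granule gene expression, at 1.75 (limma adjusted p = 0.0439), the myeloid master regulator Spi1 at 1.59 (limma adjusted p = 0.0190) and Cebpa at 1.09 (limma adjusted p = 0.0461). None of the 12 was called without untreated array 3 or without any 1 polyI:C array, and 1 was without untreated array 1 or under median centring. Of 10 primary granule genes 2 were called upward in the difference, with a median of 1.28; the calls became 0 without untreated array 3 or polyI:C array 3, 1 without polyI:C array 1 and 4 without untreated array 2. The median difference was 1.07 for 19 monocyte and macrophage genes, 1.85 for 11 eosinophil genes, 1.32 for 14 B cell genes, 1.102 for 6 mast cell and basophil genes and 0.97 for 14 stromal and endothelial genes. It was 0.29 for 14 T and NK cell genes, 0.28 for 16 megakaryocyte and platelet genes and -0.20 for the 18 HSC markers. For 17 erythroid genes it was -0.62, with 14 of 17 below 0 and 4 called lower by limma after polyI:C. Without treatment limma called 9 of 11 eosinophil, 9 of 14 B cell and 9 of 14 stromal genes lower. Their median ratios were -2.28, -1.31 and -1.05. It called 2 of 19 monocyte, 3 of 6 mast cell and 1 of 14 T and NK genes lower. The count was 3 of 16 for megakaryocyte and 4 of 17 for erythroid genes. Some genes of these lists were tested only because the untreated pool was well above background on 3 of 3 arrays. Among them were Alox15 and Ccr3 (eosinophil), Blk (B cell) and Dcn, Lepr, Adipoq and Postn (stromal). For such genes the filter itself favours a lower untreated ratio and an upward difference, so nothing is read from their part in these counts and medians. The difference was called upward for 5 eosinophil, 3 B cell, 2 stromal, 2 megakaryocyte and 1 monocyte genes. It was called downward for 3 of 30 interferon response genes, and for 0 without untreated array 3 or any 1 polyI:C array. For keratinocyte and squamous epithelial genes, the other main site of stefin A expression, only 6 of 16 on the array were measured, and their median difference was 0.26.

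The 10 named genes whose ratios followed the stefin A median most closely over the 6 arrays were Cxcr2, S100a8, Olfml2b, Gpx3, Fcgr3, AA467197, Cd52, Chil3, Wfdc21 and Fcnb, in that order. They were ranked by Pearson r, from 0.991 to 0.974, among the 61 of 13564 named genes whose treatment difference was at least 2 log2 units. Genes chosen for such a difference must follow a profile that is split by treatment, so high values of r are largely fixed by this choice. With the 12 channel levels in place of the 6 ratios, 3 of the 10 stayed among the closest 10. Gpx3, a secreted glutathione peroxidase, had ratios of -2.25, -1.74 and -2.75 without treatment and 0.52, 0.63 and 0.74 with it. Its treated arrays were all above its untreated ones, by 2.87 on average (SE 0.29), which is given as a description since the gene was chosen for a large difference. In these 10 genes the pool change ran from -3.30 for Fcnb to -1.93 for S100a8, and the Cdk6-/- change from -0.89 for Fcnb to 0.27 for S100a8.

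The rest of the locus was read next. In RefSeq's order along chromosome 16 the family runs Csta1, Stfa2l1, Cstdc4, Csta3, Csta2, Stfa1, Cstdc3, Cstdc6, Cstdc5, Stfa2 and Stfa3. Cstdc3 had no probe, and the other 4 genes outside the set had 1 probe each that was too dim to be tested. Csta1 was well above background on 0 arrays, Cstdc6 in Cy5 on 1 array, and Csta3 in each channel on 1. Csta2, which lies between Csta3 and Stfa1, was above background in Cy5 on 2 arrays and in Cy3 on 3. No ratio is given for these 4 genes.

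Of the 10 protein-coding genes flanking the family, 5 on each side, 8 were tested: Parp9, Kpna1, Wdr5b, Fam162a, Ccdc58, Cd86, Slc15a2 and Eaf2. Limma called 0 of 8 in the difference between treatments, with 0 at an unadjusted p under 0.05, and 0 in either ratio, with 1 lower without treatment at an unadjusted p under 0.05. Under median centring 1 of 8 was called in each ratio. Their median difference was -0.21, and that of the 6 members was 3.13. The members were chosen for their ratios and the neighbours for their position, so nothing is read from this contrast.

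The difference between treatments kept its sign for all 6 members under every processing alternative run, the values within slide 2 alone being the exception already given for Stfa3. It ran from 2.59 to 3.53 for Stfa1, 3.45 to 4.21 for Stfa2, 2.82 to 3.83 for Stfa2l1, 2.84 to 3.55 for Cstdc4 and 2.58 to 3.45 for Cstdc5. Stfa3 ran from 0.15 to 1.09 and was the lowest of the 6 each time.

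**Figure D4:**
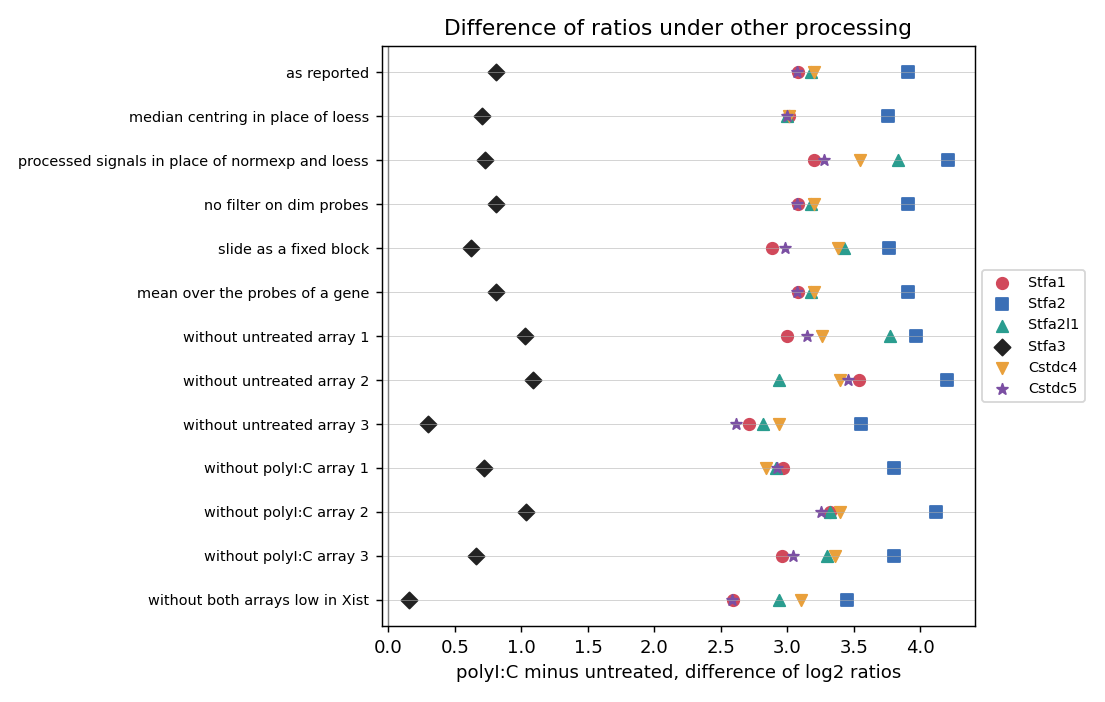
Difference of log2 ratios, polyI:C minus untreated, for each stefin A gene (symbols) under each processing alternative (rows), among them leaving out each array in turn. Stfa3 lies between 0.15 and 1.09 in every row, and the other 5 genes lie between 2.58 and 4.21.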

How the data were processed

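The members and gene lists were chosen with earlier results of these data known. Scanner files from Agilent Feature Extraction 11.5.1.1 gave, per the file headers, median intensity and background for 2 colours; the processed signals in them were background-subtracted and dye-normalised by the authors' scanner software, which also wrote their log10 ratio. The deposited value table held the log2 of the processed Cy5 over Cy3 signal (largest gap 2.52e-06), with array medians of -0.04 to 0.22. Here, in R 4.3.3 with limma 3.58.1, intensities were corrected with normexp (offset 50), ratios were normalised by loess within arrays and channel levels by Aquantile between arrays. Control spots and non-uniform or outlier spots (0.657%) were left out. Of 55681 probes, 31782 were tested, those well above background in 1 channel on all 3 arrays of a group, and the brightest probe stood for a gene. Symbols came from RefSeq on GRCm38.p6, matching 22244 of 23839 accessions. One limma fit (lmFit, eBayes) held a mean per treatment over 6 arrays, with Benjamini-Hochberg adjustment over 22617 genes and a threshold of 0.05. SEs are of this fit. The fit was tested on simulated data. Arrays are numbered by accession, which pairs no samples, and the number of arrays limits the precision. Named genes were the members, the 10 most alike in ratio, and up to 4 called genes per list (or, where none was called, the 2 largest). Shared strings and identities came from Biopython 1.88; alternatives are given at the end.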

Additional observations from a re-analysis of the deposited data

Results flagged for a closer look

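Genotype effects that differed between treatments are collected here. In 4 stefin A genes every untreated Cdk6-/- sample was below the wild-type pool and every treated one above it: Stfa2, with a difference of log2 ratios of 3.91, Stfa2l1 with 3.18, Cstdc4 with 3.20 and Cstdc5 with 3.07. These differences were not tested, since the genes were chosen on them. Among the other named genes, limma's test of the difference itself passed for Gpx3 at 2.87, Olfml2b at 2.48, Fcnb at 2.41, Chil3 at 2.39, Ctsk at 2.33, Cxcr2 at 2.31, Retnlg at 2.27, S100a8 at 2.21, Mmp8 at 2.16, Fcgr3 at 2.14, Wfdc21 at 2.11, Cd52 at 2.11 and AA467197 at 2.0. It also passed for C5ar1 at 1.94, Wfdc17 at 1.84, Slpi at 1.82, Mmp9 at 1.81, Ctsh at 1.79, Cebpe at 1.75, Spi1 at 1.59, Kng2 at 1.57 and Cebpa at 1.09. The probes of Ctsk and Kng2 were not well above background on any array of 1 group in 1 channel, so the size of their differences is not read. Of these genes, Cxcr2, S100a8, Olfml2b, Gpx3, Fcgr3, AA467197, Cd52, Chil3, Wfdc21 and Fcnb had been picked for a difference of at least 2 log2 units, so that for them the test repeats the choice. The others were named because limma had called them within a list, Mmp9 for its untreated ratio and the rest for the difference itself. Their passing here is therefore not separate support.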

How the results depend on the processing

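The 5 medians over the stefin A genes kept their direction under every alternative run; without 1 array they ran from -1.31 to -0.75 (untreated), 1.83 to 2.16 (polyI:C), 2.77 to 3.42 (difference), 0.78 to 1.56 (Cdk6-/- level) and -1.93 to -1.52 (pool level). The pool change was -1.51 with slide as a block and -2.39 without Stfa3. Of 348 values for single members, 342 moved by less than their spread, 5 moved further and 1 reversed: Cstdc4 in Cdk6-/- samples, -0.27 without polyI:C array 1 (0.74 at most without another array). The ratio of Kng2, a probe mostly at background, after polyI:C also turned, to 0.043 without polyI:C array 2 (-0.55 without polyI:C array 1). Counts over all genes moved far more. Main counts were 2937 (untreated), 221 (polyI:C), 406 (difference) and 37 (Cdk6-/- level). Leaving out 1 array gave 1420 to 3425, 2 to 218, 6 to 380 and 0 to 22; the 0 occurred without each untreated array, with 1690 to 2260 at an unadjusted p under 0.05. Median centring in place of loess gave 6209, 2585 and 241; it moved the median gene to 0.30 and 0.21, and the split of higher to lower calls from 689 and 2248 to 4879 and 1330 untreated, and from 74 and 147 to 2347 and 238 with polyI:C. Processed signals gave 34 (polyI:C) and 186 (difference), and no filter on dim probes 94, 253 and 16 (polyI:C, difference, Cdk6-/- level). With slide as a block the difference gave 0 (4432 at an unadjusted p under 0.05) and the Cdk6-/- level 17. Without both arrays low in Xist, an alternative chosen after seeing the data, as was leaving out Stfa3, counts were 1721 (untreated) and 0 for the other 3, with 3552, 4704 and 4265 at an unadjusted p under 0.05. No paired analysis was possible because arrays are numbered by accession only. The cause of these shifts was not tested. Signal near background limits the 4 dim genes of the locus.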

Other observations

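One cystatin outside the cluster, named after its values were seen, had higher mean levels after polyI:C in both channels. The change in Cdk6-/- samples did not pass limma's test, and the change in the pools was not tested. Cst7 encodes cystatin F, an inhibitor that is carried into the granules of cytotoxic cells. Its log2 level was higher after polyI:C by 2.46 in Cdk6-/- samples (SE 0.58, limma adjusted p = 0.161) and by 2.12 in the pools, which are 1 sample per treatment. Its ratio averaged -0.22 without treatment and 0.12 after polyI:C. The measured T and NK cell genes had a median change of 1.26 in Cdk6-/- samples and 0.62 in the pools. Cst7 was also counted among the 10 primary granule genes, whose median changes were 0.30 and -0.88. The cells behind the Cst7 values were not tested.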
